A study of Rattus norvegicus with 2 samples.

Results

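The genes described here are the xenobiotic-metabolising genes that the aryl hydrocarbon receptor is known to control, together with the receptor itself and the related stress regulator Nfe2l2. They were taken as every probe set annotated to Cyp1a1, Cyp1a2, Cyp1b1, Nqo1, Aldh3a1, Ahr or Nfe2l2, plus every probe set with a symbol that begins Ugt1a. This rule gave 31 of the 8740 probe sets outside the array controls, naming 16 of 5147 annotated genes, and 14 of the 31 belonged to the Ugt1a locus. The genes were chosen by their signals on these same 2 arrays, above all the low Cyp1a1 signal of the immobilized rat, so their differences are given as a description.

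The series holds 2 arrays of duodenal mucosa RNA, 1 from a rat that spent 2 weeks in an immobilization cage and 1 from a control rat that spent the same 2 weeks in a metabolic cage. Both were male Wistar rats, 15 weeks old, and their labels call the material duodenal epithelial cells. The arrays were Affymetrix rat genome U34A chips, which read each transcript with a group of short oligonucleotides called a probe set. Pooling of RNA is not stated in the sources used here. As each condition has a single array, the variation among rats is unknown and no p-values were computed. In tissue RNA, fewer cells of a type and less RNA per cell cannot be told apart.

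The aryl hydrocarbon receptor, AHR, is a ligand-activated transcription factor that waits in the cytosol with heat shock protein 90 and, once it binds planar aromatic compounds, pairs with ARNT in the nucleus and turns on genes that hold a short xenobiotic response element. CYP1 enzymes oxidise such compounds, and the second-phase enzymes NQO1, ALDH3A1 and the UGT1A glucuronosyltransferases detoxify what results. In the upper small intestine, Cyp1a1 is known as an enzyme of villus enterocytes that follows the aromatic compounds in food. NFE2L2, also called NRF2, is the transcription factor of the electrophile response and shares several targets with AHR, among them Nqo1.

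All signals below are in the arbitrary units of the deposited table, with the immobilized rat's array rescaled by a factor of 1.016, which centred the log2 ratios of measured probe sets on a median of 0. A probe set counted as measured on an array when its signal exceeded a floor of 39.9, which is the 50th percentile of all signals. Where only 1 array exceeded the floor, the fold is a lower bound against that floor. Levels of different probe sets cannot be compared with each other. Where a gene had several probe sets, their log2 ratios scattered with an SD of 0.31, here called the technical SD, which says nothing of the scatter among rats. It pools dim and bright sets above the floor, and also pairs made from the same sequence, so multiples of it are only a rough guide.

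Enterocyte markers were bright on both arrays, with all 9 that had a probe set above the floor, and of 7 hepatocyte markers 4, among them Alb, were under it on both arrays while Fga, Serpina1 and Ttr were above it. On the immobilized rat's array 7 of the 9 enterocyte markers were lower, as were 1278 of all 2524 measured genes. Their median log2 ratio was -0.21 and their summed signal 41676, against 46906 on the control array. Bright probe sets as a whole leaned lower, as given below. Quantile normalization and loess take out such a lean, and the enterocyte median was -0.09 after each. Scaling on the spike-in RNAs gave an enterocyte median of 0.005. All 13 exocrine pancreas markers were higher, with a summed signal of 13239 on the immobilized rat's array and 6966 on the control array. Of the measured hepatocyte markers Fga was 2.70-fold higher in the immobilized rat, Ttr was at a log2 ratio of 0.28 and Serpina1 at -0.28. No other probe set of Fga was above the floor on both arrays, and Fgb and Fgg were under it on both. The median log2 ratio was 0.18 for 5 measured leukocyte markers, 2 lower and 3 higher. Among them Ccl5 was 3.10-fold and Mcpt1 2.28-fold higher and Cd74 was at 0.18, while Cd4 was at -0.37 and RT1-Da at -0.01. Ptprc exceeded the floor on the control array only, with 50.1 against 38.4 in the immobilized rat. The leukocyte markers Cd3d, Cd79b and Cd8a were under the floor on both arrays. For 8 measured smooth muscle and fibroblast markers, 4 lower and 4 higher, the median was 0.25. Acta2 was 3.20-fold higher, but its other measured set had a log2 ratio of -0.13. Of 9 measured goblet, Paneth and enteroendocrine markers 5 were lower. These were Cck, Chgb, Sct, Muc2 and Tff3, at log2 ratios of -0.50, -0.41, -0.28, -0.23 and -0.23. Pla2g2a (3.31-fold), RatNP-3b (2.72-fold), Lyz2 (2.05-fold) and Gip (1.11-fold) were higher. Defa5, of the same list, was under the floor on both arrays. Summed signals on the immobilized rat's array and the control array were 6780 and 6227 for leukocyte markers, 1139 and 905 for smooth muscle and fibroblast markers, 11664 and 12583 for goblet, Paneth and enteroendocrine markers, and 321 and 261 for hepatocyte markers. No endothelial marker was above the floor on both arrays. The spike-in RNAs had a median log2 ratio of -0.21, and the actin and GAPDH control sets lay between -0.50 and -0.30. The part of these differences in the results below was not tested.

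Cyp1a1, the main inducible aryl hydrocarbon hydroxylase, had by far the lowest value of the set. The only probe set annotated to it, E00778cds_s_at, had a signal of 4.07 in the immobilized rat, against 963 in the control rat. The signal in the immobilized rat was thus under the floor, and that of the control rat was far above the floor. The difference was at least 24.1-fold lower, and over the floors and scalings tried the bound ran from 7.59-fold to 76.4-fold. Among the 2827 genes with a probe set of their own measured on 1 array or both, Cyp1a1 held rank 1 from the lowest when ratios and bounds were ordered together. Over all 4658 probe sets it held rank 2, after E00717UTR#1_s_at. The array annotation used here gives no gene for E00717UTR#1_s_at, so which gene it reads, Cyp1a1 included, was not determined. That set had a signal of 38.6 in the immobilized rat, against 2507 in the control rat, at least 62.8-fold lower. In the order by gene, with 1 probe set for each gene, the next were Reg3b, Kcnj1, Reg3g, Cd36 and Mpp3, with log2 values of -2.39, -2.31, -1.98, -1.75 and -1.59, those of Kcnj1 and Mpp3 being bounds, against a bound of -4.59 for Cyp1a1. A dimmer second probe set of Cyb5a, the cytochrome b5 gene, was at -2.13, while its brightest set was at -0.32. The likeness of these genes to Cyp1a1 is only the size of the difference over 2 arrays.

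The set's name ends in s, which the manufacturer gives to probe sets that can match more than one sequence, and no second set annotated to Cyp1a1 was there to repeat the value. The related P450 genes could not be measured on either array. Cyp1a2, the hepatic member that lies beside Cyp1a1 on the rat chromosome, was not above the floor with any of its 3 probe sets. Their signals were 3.56, 0.813 and 14.4 in the immobilized rat, against 2.70, 1.10 and 7.20 in the control rat. Cyp1b1, the member known from tissues outside the liver, was not above the floor with any of its 4 probe sets either, at signals of up to 11.8 in the immobilized rat and up to 16.5 in the control rat. Cyp1a1 was therefore the 1 CYP1 gene with a measured signal in these arrays, and that signal came from the control rat.

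**Figure D1:**
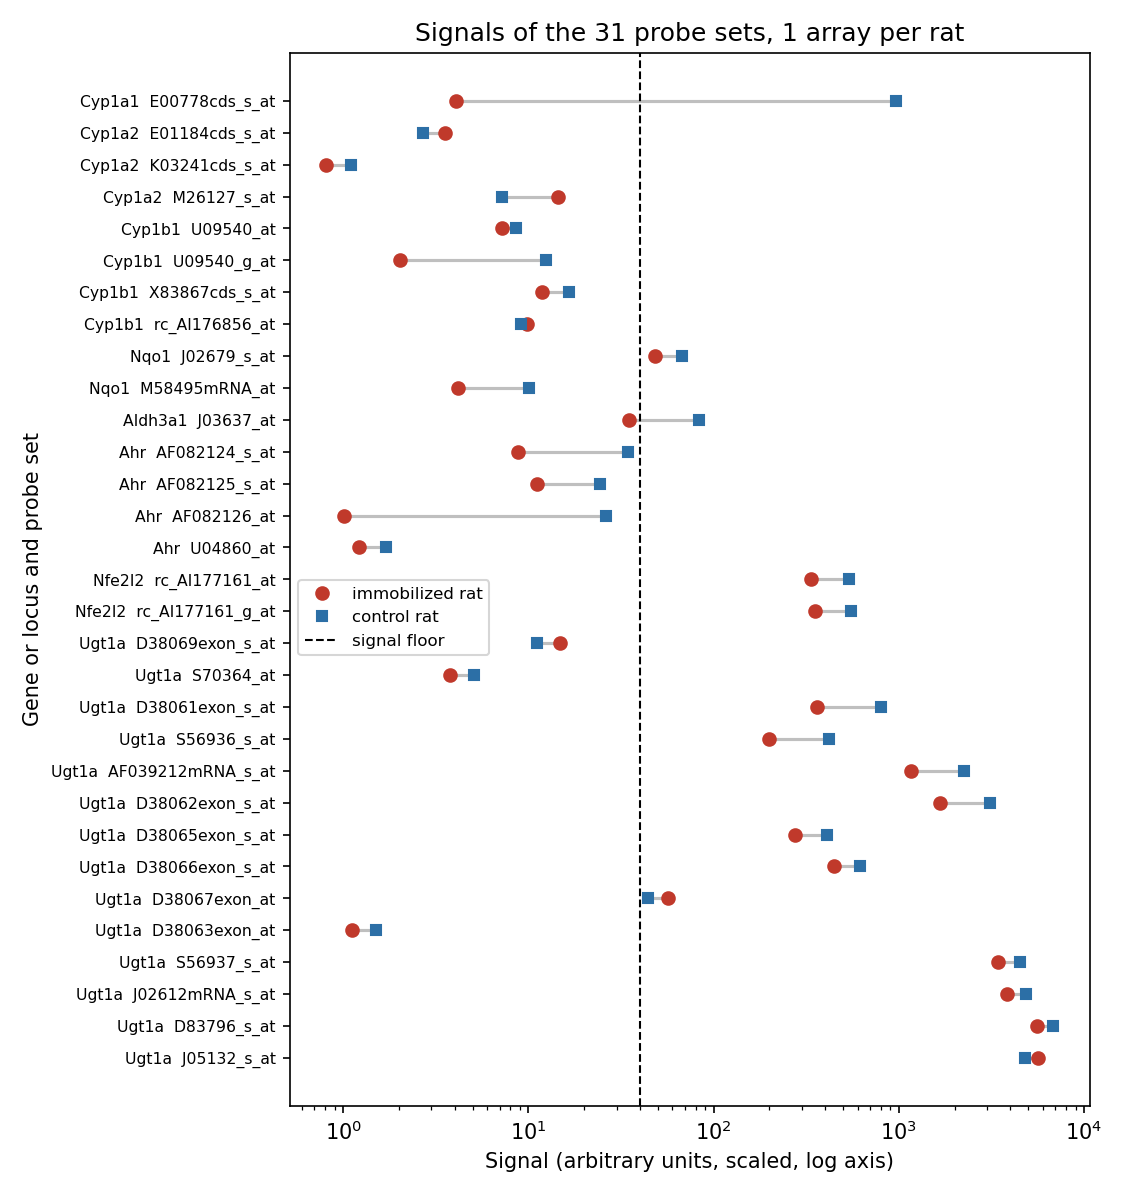
Signal of each of the 31 probe sets (x axis, arbitrary units, log scale), with the immobilized rat as circles, the control rat as squares and the floor of 39.9 as a dashed line. Cyp1a1 lies left of the floor at 4.07 in the immobilized rat and right of it at 963 in the control rat, all Cyp1a2, Cyp1b1 and Ahr sets lie left of the floor, and most Ugt1a sets lie far to its right.

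The receptor gene itself was not measurable at this floor. The 4 Ahr probe sets had signals of 8.84, 11.2, 1.02 and 1.22 in the immobilized rat, against 34.5, 24.4, 26.4 and 1.70 in the control rat. All 8 values lay under the floor, where signals have no reliable order, so no fold is given. Its dimerisation partner Arnt was measured near the floor, at 55.6 in the immobilized rat and 68.9 in the control rat, a log2 ratio of -0.31.

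The second-phase genes with a single symbol were dim, and both that could be measured were lower in the immobilized rat. Aldh3a1, which oxidises aromatic and medium-chain aldehydes and is a classic AHR-inducible gene in rat, had a signal of 35.2 in the immobilized rat, against 83.6 in the control rat. Only the control array was above the floor, and the difference was at least 2.09-fold lower. With the alternatives that left it a value, its log2 value lay between -1.25 and -0.78. Nqo1, the quinone reductase under both AHR and NFE2L2, had 48.6 in the immobilized rat and 67.9 in the control rat with its set J02679_s_at, a log2 ratio of -0.48. That difference was 1.56 times the technical SD. The other Nqo1 set stayed under the floor, at 4.17 in the immobilized rat and 10.1 in the control rat.

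Nfe2l2 was well above the floor on both arrays and lower in the immobilized rat with both of its probe sets. The set rc_AI177161_at had a signal of 338 in the immobilized rat and 540 in the control rat, a log2 ratio of -0.68. Its companion rc_AI177161_g_at had 354 in the immobilized rat and 556 in the control rat, a log2 ratio of -0.65. The 2 sets were made from the same expressed sequence and are not independent readings. They lay 2.19 and 2.11 technical SDs below 0, and 3.51% and 3.92% of all measured probe sets had a ratio as low or lower.

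The Ugt1a locus encodes glucuronosyltransferases that attach glucuronic acid to bilirubin, phenols and drugs. In the RefSeq annotation of GRCr8 its 8 protein-coding genes all end at the same base: each has a first exon of its own and they share the remaining exons. Most of its probe sets carry several symbols, and the annotation does not say which first exon a set reads, so a reading cannot be given to 1 enzyme. Of the 14 sets, 8 were annotated to the 6 symbols Ugt1a1, Ugt1a2, Ugt1a3, Ugt1a6, Ugt1a7c and Ugt1a8, and 4 were annotated to these 6 plus Ugt1a5 and Ugt1a9. The remaining 2 had 1 symbol each, Ugt1a5 and the pseudogene Ugt1a9-ps, and neither was above the floor, with signals of 14.7 and 3.76 in the immobilized rat and 11.1 and 5.10 in the control rat.

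AHR and ARNT bind the core letters GCGTG, and a fuller form of the element is TNGCGTG. The letters were searched on both strands of RefSeq promoters of GRCr8, each 300 bases long with 250 before the gene's start. Of the 15 genes of the set, counting the protein-coding Ugt1a genes singly, 12 had a promoter in that table, and Cyp1a1, Aldh3a1 and Ugt1a5 did not. The core was present in 6 of the 12 and in 29.7% of all promoters in the table. The fuller form, which contains the core, was present in 2 of the 12, Cyp1b1 and Ugt1a3, and in 4.89% of all. Cyp1b1 also held the core on the opposite strand, and the promoter of Ugt1a6 held the core only. Among the Ugt1a genes, 4 of 7 held the core. Their windows are shown because these genes share the probe sets described next, with the core in capitals and the strand on which it reads GCGTG. The first is the promoter of Ugt1a6, the phenol glucuronosyltransferase whose AHR response is well known in rat, in full. It lies at chr9:96194768-96195067 on the plus strand, and its core covers bases -133 to -129 from the start.
Ugt1a6: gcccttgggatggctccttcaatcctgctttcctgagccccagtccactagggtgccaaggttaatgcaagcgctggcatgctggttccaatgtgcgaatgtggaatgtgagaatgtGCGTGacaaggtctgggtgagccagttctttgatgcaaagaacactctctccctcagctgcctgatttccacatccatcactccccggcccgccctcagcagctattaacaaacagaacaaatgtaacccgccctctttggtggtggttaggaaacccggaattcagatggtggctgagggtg
The other windows hold the core and 20 bases on each side. That of Ugt1a7c is at chr9:96187291-96187335 on the minus strand, that of Ugt1a8 at chr9:96174772-96174816 on the minus strand, and that of Ugt1a3 at chr9:96227974-96228018 on the plus strand.
Ugt1a7c: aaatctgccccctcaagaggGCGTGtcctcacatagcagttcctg
Ugt1a8: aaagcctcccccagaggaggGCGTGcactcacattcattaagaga
Ugt1a3: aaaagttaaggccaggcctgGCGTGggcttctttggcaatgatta
In Nqo1 the core lay at bases -10 to -6, reading on the plus strand at chr19:52220253-52220297, opposite to the gene.
Nqo1: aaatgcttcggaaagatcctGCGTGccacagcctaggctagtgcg
The antioxidant response element that NFE2L2 binds, TGACNNNGC, was searched in the same promoters and found in 1 of the 12, that of Nfe2l2 itself, and in 12.1% of all. It covers bases 39 to 47 of the transcript and is shown on the minus strand at chr3:81028950-81028981.
Nfe2l2: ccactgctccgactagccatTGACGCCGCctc
A match describes these letters only and was not tied to binding in these samples. Bases farther than 250 before the start were not searched, so the lack of a match, as for TGACNNNGC in Nqo1, says nothing of them.

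The Ugt1a sets annotated to 6 symbols were lower in the immobilized rat in 6 of the 7 cases that could be measured. The lowest ratio belonged to D38061exon_s_at, with a signal of 361 in the immobilized rat, against 806 in the control rat, 2.24-fold lower. S56936_s_at followed with 199 in the immobilized rat and 420 in the control rat, 2.11-fold lower. These were the 2 Ugt1a sets past 2-fold, and with the arrays scaled on the spike-ins their log2 ratios were -0.95 and -0.87, short of that limit.

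A further pair came close to that limit. AF039212mRNA_s_at had a signal of 1159 in the immobilized rat and 2255 in the control rat, 1.94-fold lower. D38062exon_s_at had 1679 in the immobilized rat and 3108 in the control rat, 1.85-fold lower. The 4 sets were between 2.87 and 3.75 times the technical SD below 0, and at most 1.49% of all measured probe sets had ratios as low as theirs.

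Smaller differences were measured with the other exon sets. D38065exon_s_at had 277 in the immobilized rat and 412 in the control rat, a log2 ratio of -0.57, and D38066exon_s_at had 448 in the immobilized rat and 616 in the control rat, a log2 ratio of -0.46. D38067exon_at went the other way near the floor, with 56.7 in the immobilized rat and 44.5 in the control rat, a log2 ratio of 0.35. D38063exon_at stayed under the floor, at 1.12 in the immobilized rat and 1.5 in the control rat. The median log2 ratio of the 7 measured sets was -0.89.

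The 4 sets annotated to 8 symbols, all of them bright, differed less. S56937_s_at had a signal of 3421 in the immobilized rat and 4512 in the control rat, a log2 ratio of -0.40. J02612mRNA_s_at had 3864 in the immobilized rat and 4893 in the control rat, a log2 ratio of -0.34, and D83796_s_at had 5544 in the immobilized rat and 6829 in the control rat, a log2 ratio of -0.30. J05132_s_at was higher in the immobilized rat, at 5679 against 4826 in the control rat, a log2 ratio of 0.23. Their median was -0.32, 3 of them were lower, and each lay within 1.29 technical SDs of 0 or closer.

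Bright probe sets as a whole leaned the same way. Of the 189 other probe sets with a mean signal above 3000, 142 were lower in the immobilized rat, with a median log2 ratio of -0.16. After quantile normalization or loess, which take out such a lean, the median of the 8-symbol sets was -0.17 and -0.20, while that of the 6-symbol sets was -0.91 and -0.84. The ranges of the 2 kinds of set overlapped, since each held 1 set with a ratio above 0, and no test of their difference was possible.

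**Figure D2:**
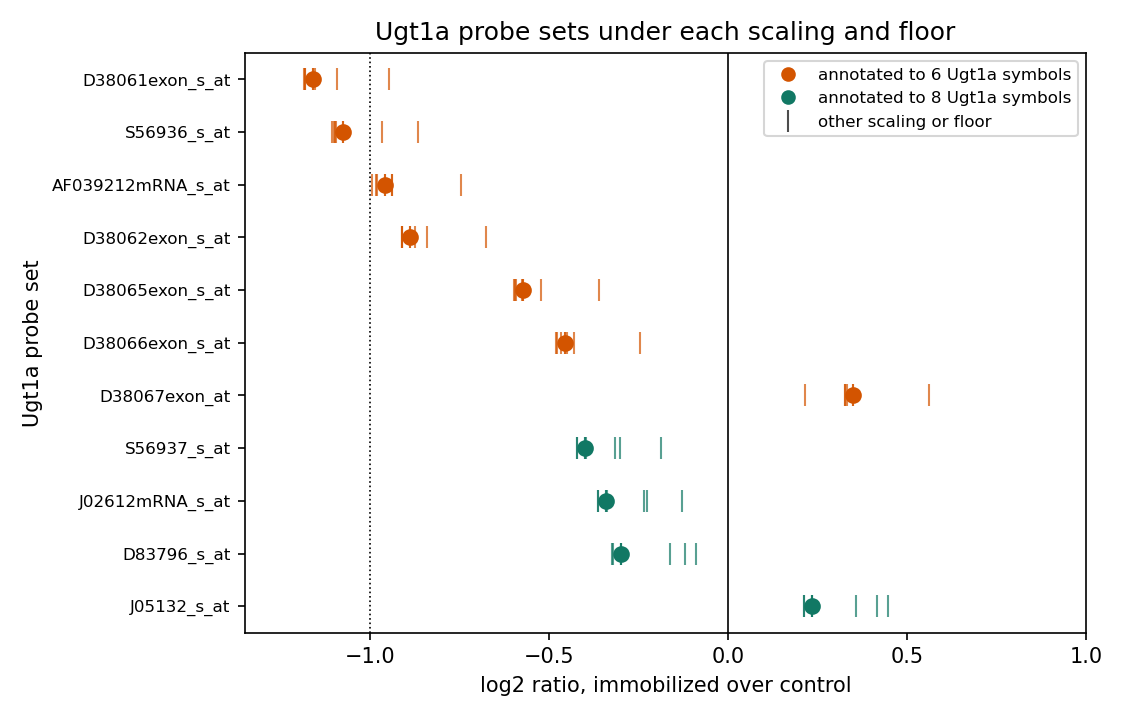
Log2 ratio of the immobilized over the control rat (x axis) for the 11 measured Ugt1a probe sets, with a circle for the value reported and ticks for the other scalings and floors. The sets annotated to 6 symbols reach -1.16, those annotated to 8 symbols lie between -0.40 and 0.23, and no set changes sign with the setting.

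Of the whole set, 14 of the 31 probe sets were above the floor on both arrays, 2 on the control array only and 15 on neither. Of the 14, 12 were lower in the immobilized rat, as were 2053 of all 4105 measured probe sets, 2 were at least 2-fold lower, beside a background of 0.853%, and 0 were at least 2-fold higher, beside 2.34%. With bounds counted, 4 were at least 2-fold lower, namely the sets of Cyp1a1 and Aldh3a1 and 2 of Ugt1a, beside a background of 1.05%, and 0 were at least 2-fold higher, beside 2.43%. The members were chosen for such values, so these counts are a description. The median log2 ratio of the 14 was -0.53, and it was -0.48 when Nqo1, Nfe2l2 and the Ugt1a locus were each counted once. The scale used had put the median of all measured probe sets at 0.

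**Figure D3:**
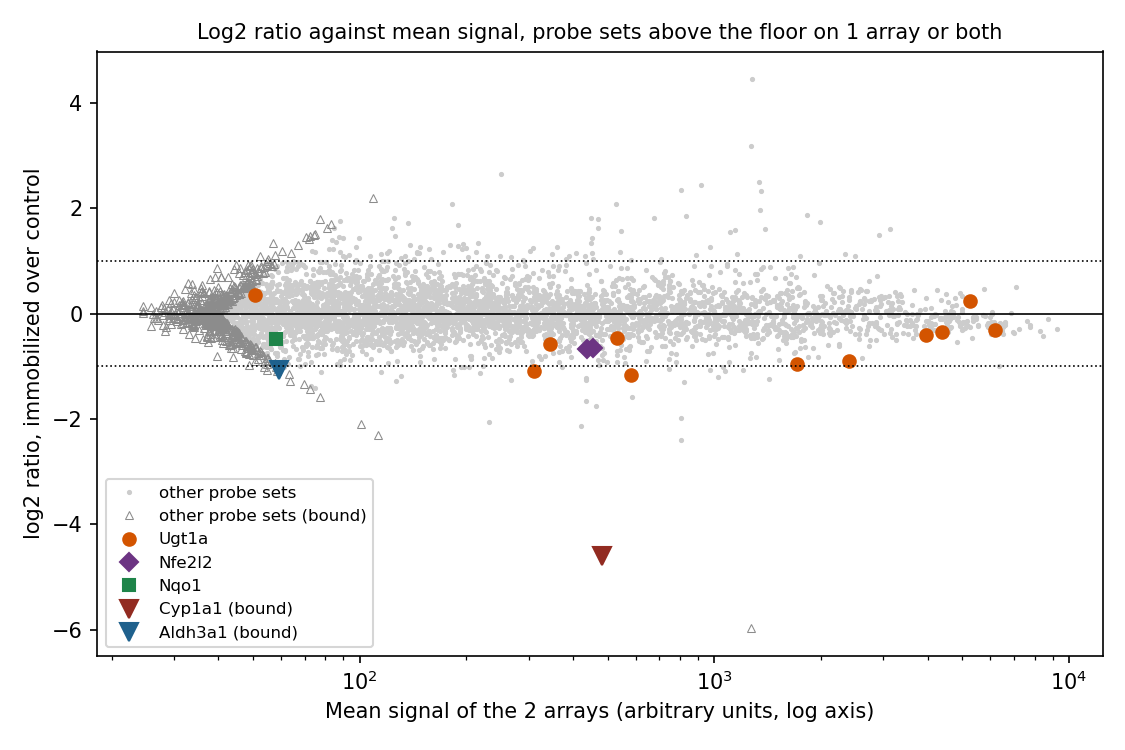
Log2 ratio of the immobilized over the control rat (y axis) against the mean signal of both arrays (x axis, arbitrary units, log scale), with 1 grey dot per probe set, coloured symbols for the members, triangles for bounds and dotted lines at 2-fold. Open triangles are bounds of other probe sets. Only the unannotated set E00717UTR#1_s_at, at a bound of -5.97, lies below Cyp1a1 at -4.59, and 12 of the 14 members with a ratio lie below 0.

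Partners and further targets of the pathway were read from lists. Of 15 listed AHR partners and co-regulators, 8 were on the array and 3 could be measured in both rats. Besides Arnt these were Hsp90ab1, a cytosolic chaperone of AHR, with 3208 in the immobilized rat and 2663 in the control rat, a log2 ratio of 0.27 and 0.32 to 0.40 with its other sets, and the transcription factor Sp1, which was at the floor in the immobilized rat, with 40.4 against 75.9 in the control rat. None of the list was at 2-fold, beside a background of 0.674% of genes lower and 2.02% higher. Other genes that respond to AHR were lower in 7 of 11 measured cases, 0 of them at 2-fold, with a median of -0.16. Farthest from 0 were the glutathione transferase gene Gsta4 at -0.47 (-0.61 with its other set), Fos at 0.38 (-0.56 to 0.07 with its other sets) and Ugdh, which makes the UDP-glucuronic acid used by UGT1A enzymes, at -0.37.

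The NFE2L2 list had 22 measured genes, 14 lower and 8 higher, beside 1278 lower of all 2524 measured genes. Its median was -0.07. The 1 gene at 2-fold was Ephx1, the microsomal epoxide hydrolase that acts on the epoxides made by CYP1 enzymes. It was higher, at 564 in the immobilized rat against 253 in the control rat, beside a background of 2.02% of genes higher and 0.674% lower. Other genes of the list, chosen after their values were seen, included the carbonyl reductase gene Cbr1 at 0.72, the efflux transporter gene Abcc3 at 0.65 and the thioredoxin reductase gene Txnrd1 at -0.61. The second probe set of Txnrd1 had a signal of 478 in the immobilized rat and 1169 in the control rat, a log2 ratio of -1.29. The subunits of the glutathione synthesis enzyme divided, with Gclm at -0.38 (-0.70 and -0.40 with its other sets) and Gclc at 0.53. Hmox1, the stress-induced haem oxygenase, was at 0.00, with a signal of 122 in both rats.

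The list of P450 electron donors and haem enzymes, with Alas2, Hmox2 and Blvra among them, was lower in 8 of 10 cases. Of all 2524 measured genes 1278 were lower. The median of the list was -0.24, with 0 at 2-fold by the brightest set of each gene. Cyb5a, of this list, was at -0.32 with its brightest set and at -2.13 with the dimmer set given above. The haem synthesis gene Ppox was at -0.41 (-0.06 with its other set), Alas1, which encodes the first enzyme of that pathway, at -0.35 (-0.49 with its other set), and Urod at 0.50. The P450 reductase gene Por, named for its role after its values were seen, was at -0.29 (-0.44 and -0.28 with its other sets).

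Among the other P450 genes that could be measured, none was as low as Cyp1a1. Of 39 genes whose symbols begin Cyp2, Cyp3 or Cyp4, a prefix that also takes in steroid and vitamin D hydroxylases, 19 were above the floor on neither array and 20 were measured, 9 lower and 11 higher, with a median log2 ratio of 0.01. Cyp4f5, a member of the fatty acid hydroxylase family, was the only one at 2-fold, at 388 in the immobilized rat against 190 in the control rat. The background was 2.02% of genes higher, and after quantile normalization 0 of these P450 genes were at 2-fold higher. The lowest was Cyp4b1, at a log2 ratio of -0.82. Glucuronidation outside the Ugt1a locus was divided, 3 lower and 3 higher. Ugt2b35, a glucuronosyltransferase gene of the second family, was higher at 2089 in the immobilized rat against 1149 in the control rat, a log2 ratio of 0.86, and Ugt2b was at 0.51 (-0.41 with its other set).

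The aldehyde dehydrogenases other than Aldh3a1 were lower in 4 of 6 cases, with Aldh2 at 0.59, Aldh6a1 at -0.47 and Aldh7a1 at 0.45 (0.21 with its other set). In tryptophan metabolism, which yields natural AHR ligands, 2 of 8 genes with a probe set were measured. Maoa, a monoamine oxidase, was at -0.87 (-0.66 with its other set) and Ddc, the aromatic amino acid decarboxylase, at -0.45. Over all 8 lists, 79 genes were measured by their brightest probe set, 48 lower and 31 higher, with a median of -0.08. Of all 2524 measured genes 1278 were lower. By these brightest sets 2 listed genes were at 2-fold, both higher. Dimmer sets were not counted in either direction, and those of Cyb5a and Txnrd1 given above were past 2-fold lower. Bounds added no further gene of these lists, beside a background of 0.92% of genes lower and 2.05% higher by ratio or bound.

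**Figure D4:**
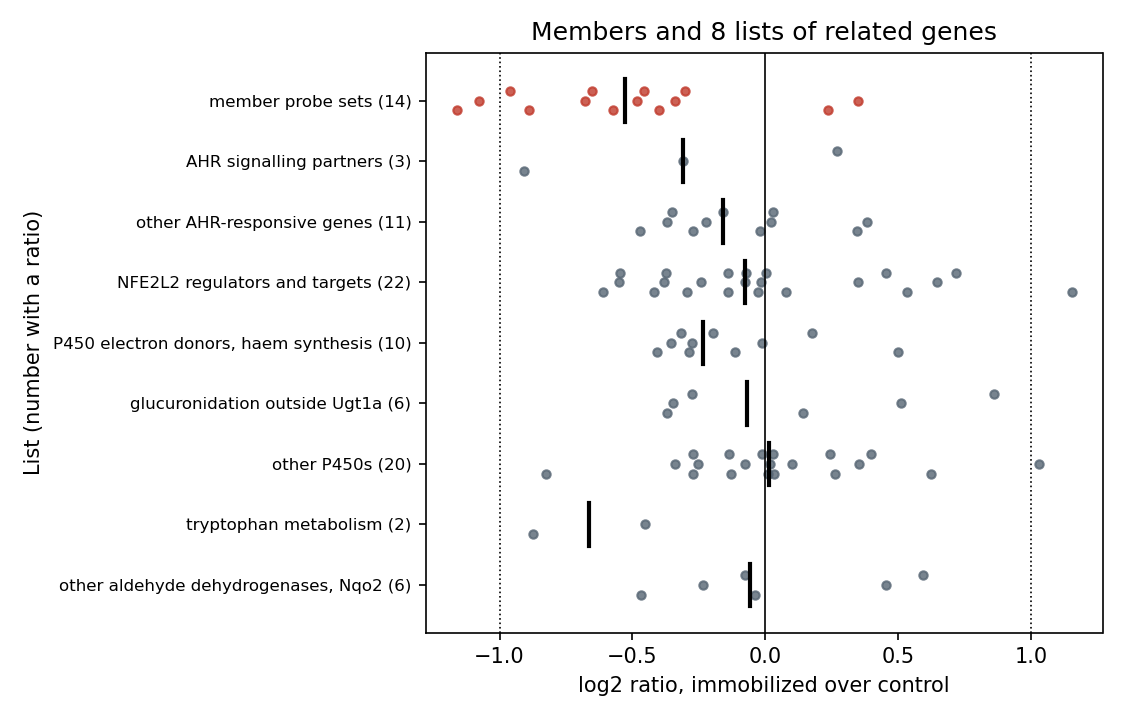
Log2 ratio of the immobilized over the control rat (x axis) for the 14 measured member probe sets and the measured genes of 8 lists (rows, 1 point per set or gene), with black bars at the medians and dotted lines at 2-fold. The members have a median of -0.53, the NFE2L2 list one of -0.07 and the other P450s one of 0.01; bounds such as that of Cyp1a1 are not drawn.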

How the data were processed

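The authors' deposited table gives 1 signal intensity per probe set on a linear scale for each array. Affymetrix software in version 4.0 made the values per the labels' design text, whereas MAS5 is named per the submitters' processing notes, so which signal algorithm was used is not settled. Detection calls were not used here. Groups came from the sample titles. Symbols came from the array annotation, updated through the gene ID, and each listed gene was read from its brightest probe set. Of 8740 probe sets, 7006 had 1 symbol, 308 several and 1426 none. The immobilized rat's array was rescaled, the floor set, and log2 ratios taken where both arrays exceeded it. The named genes were every member probe set, the genes of each list at 2-fold (otherwise the 3 farthest from 0), and the 5 genes with the largest lower values; a few others, marked in the text or named beside the marker lists, were chosen after their values were seen. The members and lists were chosen with earlier results of these data known. Alternatives were other scalings, floors at the 30th and 70th percentiles, an offset of 32 with no floor, folds of 1.5 and 3, bounds counted and probe sets averaged; scaling on spike-ins and counting each locus once were added after seeing the data. Counting and scaling were also tested on simulated data. The number of arrays limits all precision. Python 3.11.15, numpy 2.4.6, pandas 2.3.3, statsmodels 0.14.6 and matplotlib 3.10.9 were used.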

Additional observations from a re-analysis of the deposited data

How the results depend on the processing

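None of the 14 member ratios changed sign under the 8 other scalings and floors that gave them a value. Floors at the 30th and 70th percentiles gave Cyp1a1 log2 bounds of -6.26 and -2.92. Scaling on the spike-ins, chosen after seeing the data, moved the median log2 ratio of all probe sets to 0.20, left 0 member ratios at 2-fold lower (the log2 bound of Cyp1a1 was then -4.48), and gave 102 genes higher and 8 lower, against 51 and 17 in the main setting. At 1.5-fold, 6 of the 14 member ratios were lower. The share over all probe sets was not counted at that fold, so this count has no background. Among the 2524 measured genes 211 were higher and 123 lower, and among the 79 measured pathway genes 7 were higher and 4 lower. At 3-fold, ratios alone gave 0 member probe sets, with Cyp1a1 past it by its bound, 6 genes higher and 3 lower, and 0 pathway genes higher. With bounds counted, 4 member probe sets were at least 2-fold lower, beside 1.05% of all probe sets. The same count over genes was 26, or 0.92%. The floor at the 30th percentile gave 106 genes higher and 71 lower, with 4 pathway genes higher and 1 lower, and the floor at the 70th gave 22 higher and 9 lower. Quantile normalization left 1 pathway gene higher. The counts under other folds, floors and bounds follow from how many genes each lets in. No paired analysis was possible because each condition has 1 array. Signal over background limits Cyp1a2, Cyp1b1 and Ahr, whose sets were under the main floor on both arrays, and Nqo1, Aldh3a1 and D38067exon_at, which lay near it.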
